A study of Mus musculus with 4 samples.

Results

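Cytochrome P450 genes were followed in thymic epithelial cells (TECs) in which loss of Meis1 had been induced. Meis1 encodes a transcription factor of the homeobox class. The members are the genes whose array name has the form Cyp, a family number, a subfamily letter and a gene number, with Cyp11a1, Cyp11b1, Cyp17a1 and Cyp21a1 left out. There were 73 such genes, read by 104 of the 41174 probes on the array, with 1 to 4 probes per gene. The choice used names and no measured value. Of the 73 genes, 35 entered the test among 16832 features, and the other 38 were not well above background on both arrays of either group.

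Each array held the RNA of 1 pool of sorted cells, with 2 pools per group and 6 mice in each pool. Control mice were K14-CreERT2 Meis1 fl/+, which the labels call WT, and Meis1-CKO mice were K14-CreERT2 Meis1 fl/fl. All mice, controls included, carried the tamoxifen-inducible recombinase under the keratin 14 promoter, were 3 weeks old and were given tamoxifen at 1 mg a day over 3 days. CD45- EpCAM+ cells were sorted 4 days later, after magnetic removal of CD45- and Ter119-bearing cells, and 10 ng of RNA was amplified. As a model this has limits that the labels give: the keratin 14 promoter drives the recombinase, the controls have 1 floxed allele, and mice were pooled. Control 1 and Meis1-CKO 1 lay on 1 slide (slide 1), and control 2 and Meis1-CKO 2 on the other (slide 2), scanned separately, so slide, scan and replicate number coincide.

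P450 enzymes are heme-containing monooxygenases. Most sit in the endoplasmic reticulum and take electrons from the reductase Por, and a few sit in mitochondria and take them from Fdxr and Fdx1. Members of the CYP1, CYP2 and CYP3 families clear drugs and foreign chemicals, mostly in liver and gut, the CYP4 family hydroxylates fatty acids, and others make or break down bile acids, oestrogen, vitamin D and retinoic acid. Medullary TECs are known for transcribing many genes restricted to such peripheral tissues, in part under the regulator Aire, which exposes developing T cells to these antigens.

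Values are log2 processed signals minus the array's 75th percentile, called relative log2 signals, so a value of 0 is the signal at that percentile. A signal is dim where the scanner software did not call it well above background. The lowest signals called above background lay between -3.78 and -3.42 on the 4 arrays. The 8 TEC markers, among them Epcam, Krt8 and Foxn1, were above background in all 4 pools. Meis1-CKO 2 stood apart: its correlations with the other 3 arrays across features were 0.856 to 0.884, against 0.936 to 0.943 among the others. Ptprc, which encodes CD45, read 1.44 in control 1, 1.19 in control 2, -0.75 in Meis1-CKO 1 and 5.55 in Meis1-CKO 2. The brighter probe of the targeted gene Meis1 read -0.12, -0.91, -0.44 and -2.08 in the same order, and the other -3.19, -3.23, -3.77 and -4.74. That other probe lay close to the lowest signals above background. It was above background in both controls and dim in both Meis1-CKO pools, which lay below both controls. On the brighter probe Meis1-CKO 1 lay between the controls; which exons the floxed allele loses is not stated in the labels, so these probes do not check the deletion, and pools keep the names of their labels. In cells measured in bulk, fewer cells of a type and less RNA per cell cannot be told apart.

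Probe sequences are shown for the genes on which the results turn: those higher in both Meis1-CKO pools, and a neighbouring pair whose probes share letters. Positions are on mm9, as the arrays' annotation gives them, and letters run 5′ to 3′. For the first 3 lines only the first 30 of 60 bases are given.
Cyp2d22 first probe, chr15:82201687-82201746, minus strand: ttccctcaaattgataatgtttatacatag
Cyp2d22 other probe, chr15:82205919-82205978, minus strand: gttgctttccgattccagcatgcctgtaat
Cyp27a1 probe, chr1:74782203-74782262, plus strand: tcagatctgttgcaatcatgttccagaact
Cyp2d22 second probe, chr15:82204377-82204436, minus strand: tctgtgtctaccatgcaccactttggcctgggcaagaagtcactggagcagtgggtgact
Cyp4f18 probe, chr8:74512981-74513040, minus strand: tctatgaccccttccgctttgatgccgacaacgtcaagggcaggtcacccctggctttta
Cyp3a11 probe, chr5:146672058-146673925, minus strand: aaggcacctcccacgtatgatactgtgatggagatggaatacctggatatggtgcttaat
The span of the Cyp3a11 probe exceeds its 60 bases. The probes of Cyp2a4 and Cyp2a5, neighbours on chromosome 7, are close in sequence: a run of 28 bases, given here in capitals, begins at base 33 of the Cyp2a4 probe and at base 11 of the Cyp2a5 probe.
Shared run: GTAGACTTGCAGAGGATATTTCAAAGGT
Signals of Cyp2a4 and Cyp2a5 may therefore hold RNA of either gene, and they are given as uncertain.

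P450 genes were widely detected, though less often than the average probe. Well above background were 51 of the 104 P450 probes (49.0%) in control 1, 46 (44.2%) in control 2, 59 (56.7%) in Meis1-CKO 1 and 45 (43.3%) in Meis1-CKO 2. Over all probes the shares were 58.0%, 60.9%, 63.0% and 60.8%. By gene, at least 1 probe was above background for 41 and 37 of 73 genes in the controls and for 47 and 37 in Meis1-CKO 1 and 2, so the highest count came from one Meis1-CKO pool and the lowest was shared by the other and a control. In all, 30 genes were above background in every pool, 26 in some pools, and 17 in none. The 17 included Cyp7a1, the rate-limiting enzyme of bile acid synthesis from cholesterol, and Cyp8b1, which shapes cholic acid, both dim on all 4 arrays. Cyp11b2, the aldosterone synthase, and Cyp1a1, the classic target of the aryl hydrocarbon receptor, were dim as well. The drug and xenobiotic CYP2 genes made up the largest group, with 19, 15, 21 and 16 of 31 genes above background, in the order of the pools above.

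**Figure D1:**
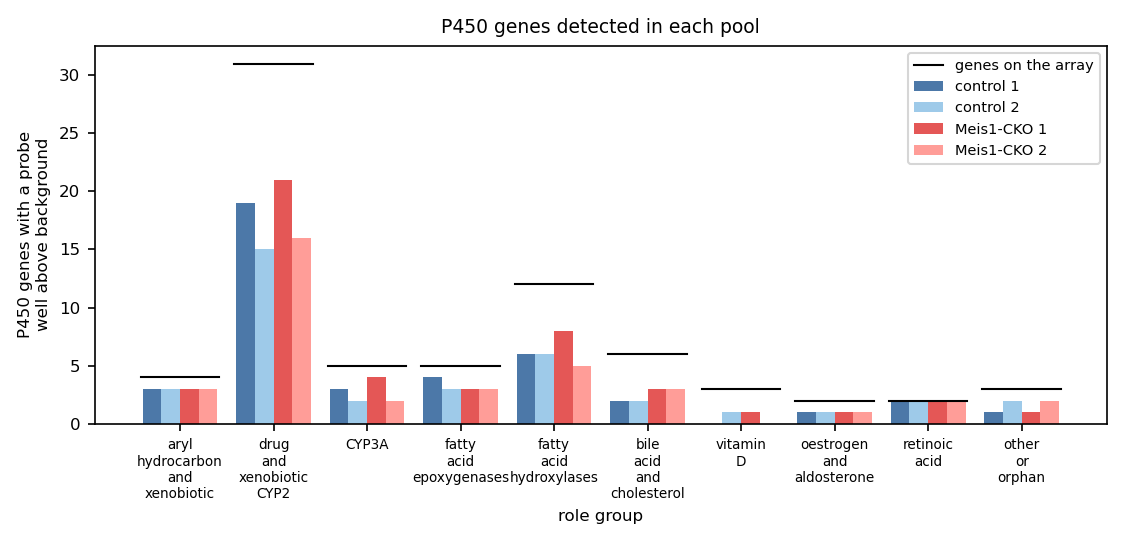
P450 genes with at least 1 probe well above background (vertical axis, number of genes) in each of the 4 pools, by role group, with a black line at the number of genes of that group on the array. In the drug and xenobiotic CYP2 group 15 to 21 of 31 genes were detected, and both retinoic acid genes were detected in every pool.

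No P450 gene passed the test between genotypes, and neither did any other feature: limma called 0 of 35 P450 genes and 0 of 16832 features (0%) at a Benjamini-Hochberg adjusted p under 0.05, and the adjusted p was 1.00 for every P450 gene. A fit that blocked on slide again called 0 P450 genes. Log2 differences, Meis1-CKO minus control, ran from -0.80 to 2.92, and 31 of the 35 lay within 1 log2 unit of 0. Their standard errors ran from 0.44 to 1.21, so 2-fold differences were not resolved for most members. At an unadjusted p under 0.05, 3 P450 genes were higher in Meis1-CKO (Cyp2d22, Cyp27a1 and Cyp4f18) and 0 were lower, where 228 of all features (1.35%) were higher and 244 lower. All 3 were dim in both controls and passed the filter only through the Meis1-CKO arrays, so they had to differ, and nothing is read from this count. In 4 genes both Meis1-CKO pools lay above both controls with at least a 2-fold difference (3.36% of all features), and in 0 genes both lay below them by as much (3.98% of all features). At any size of difference, 4 genes lay above (11.1% of all features) and 3 below (14.5% of all features). In both counts the 4 genes above are these 3 and Cyp3a11, which was dim in control 1. All 4 passed the filter only through the Meis1-CKO arrays. Nothing is therefore read from the 2-fold or the any-size counts. With the array's background corrected by normexp, 0 genes lay above by 2-fold, and the log2 differences were 0.35 for Cyp2d22, 0.70 for Cyp27a1, 0.38 for Cyp4f18 and 0.31 for Cyp3a11. Without Meis1-CKO 1, 11 genes lay below by 2-fold, and limma called 204 features higher and 120 lower, 1 P450 gene (Cyp27a1, higher) among them. Without Meis1-CKO 2, 7 P450 genes lay above by 2-fold. With 1 Meis1-CKO array left, separation is easier to meet, and the shares over all features given above come from all 4 arrays. The counts without an array are not to be set against those shares.

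What the P450 genes shared was a pattern over pools that did not follow genotype. Meis1-CKO 1 held the highest of the 4 values for 18 of the 35 tested genes (51.4%, against 21.7% of all features). Meis1-CKO 2 held the lowest for 23 (65.7%, against 36.9% of all features). On slide 1 the median P450 difference, Meis1-CKO minus control, was 0.45 (all features 0.00). There 25 of 35 genes were higher in Meis1-CKO (71.4%, against 50.1% of all features). On slide 2 the median was -0.50 (all features -0.12), with 27 of 35 lower (77.1%, against 56.3% of all features). Opposite signs on the slides were seen for 23 genes. Of these, 20 were higher on slide 1 and lower on slide 2 (57.1%, against 29.7% of all features). The other 3 went the opposite way (8.6%, against 23.3% of all features). The median over both slides was -0.15 (all features -0.05). These are counts over genes of the same 4 arrays, given as a description. Under other scalings the slide medians kept their signs, at 0.18 to 0.44 on slide 1 and -0.50 to -0.28 on slide 2. Scaling to the array median moved the all-feature medians to -0.13 and 0.04, against which the P450 medians were 0.31 and -0.33.

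**Figure D2:**
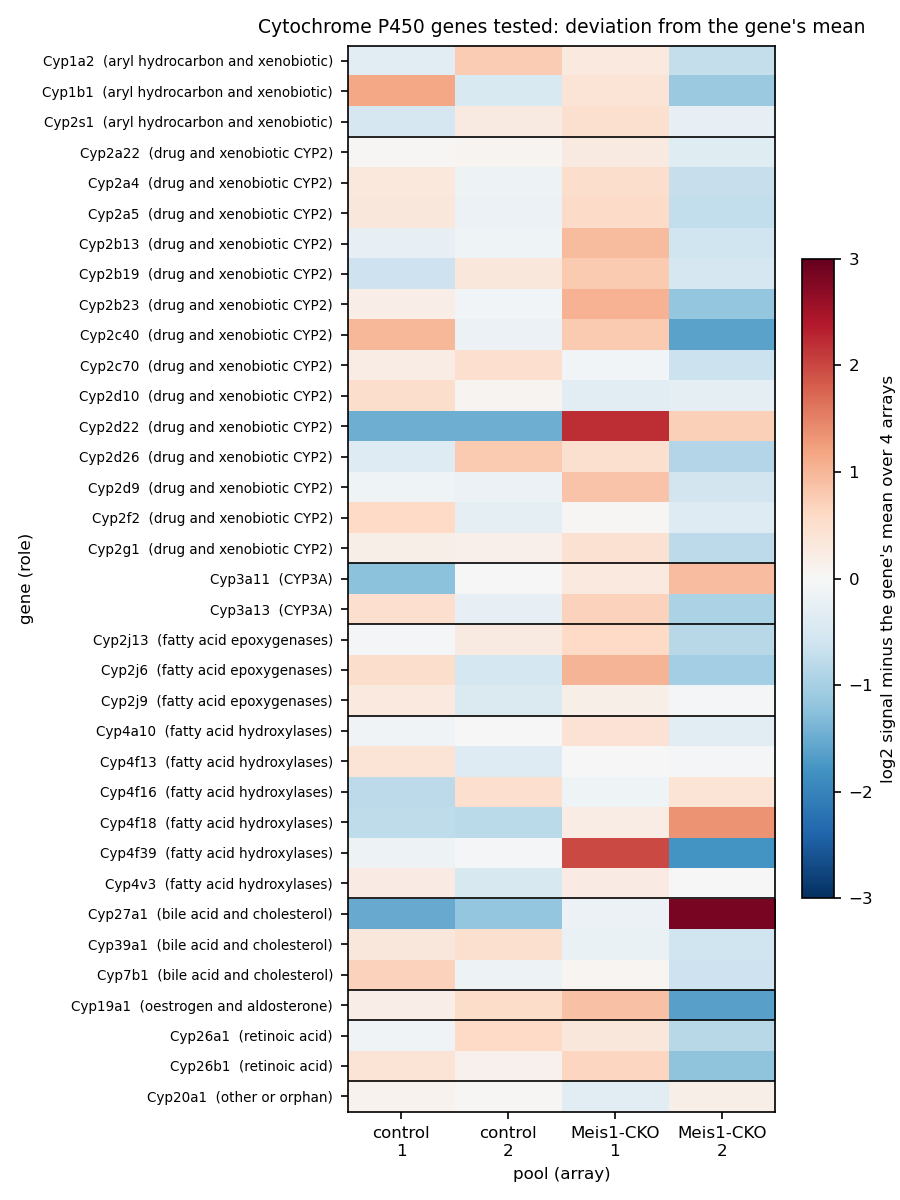
Relative log2 signal of each of the 35 tested P450 genes in each pool, minus that gene's mean over the 4 arrays (colour, log2 units), with genes grouped by role between black lines. Meis1-CKO 2 was the lowest pool for 23 genes and Meis1-CKO 1 the highest for 18, while Cyp27a1, Cyp4f18, Cyp2d22 and Cyp3a11 were higher in both Meis1-CKO pools.

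**Figure D3:**
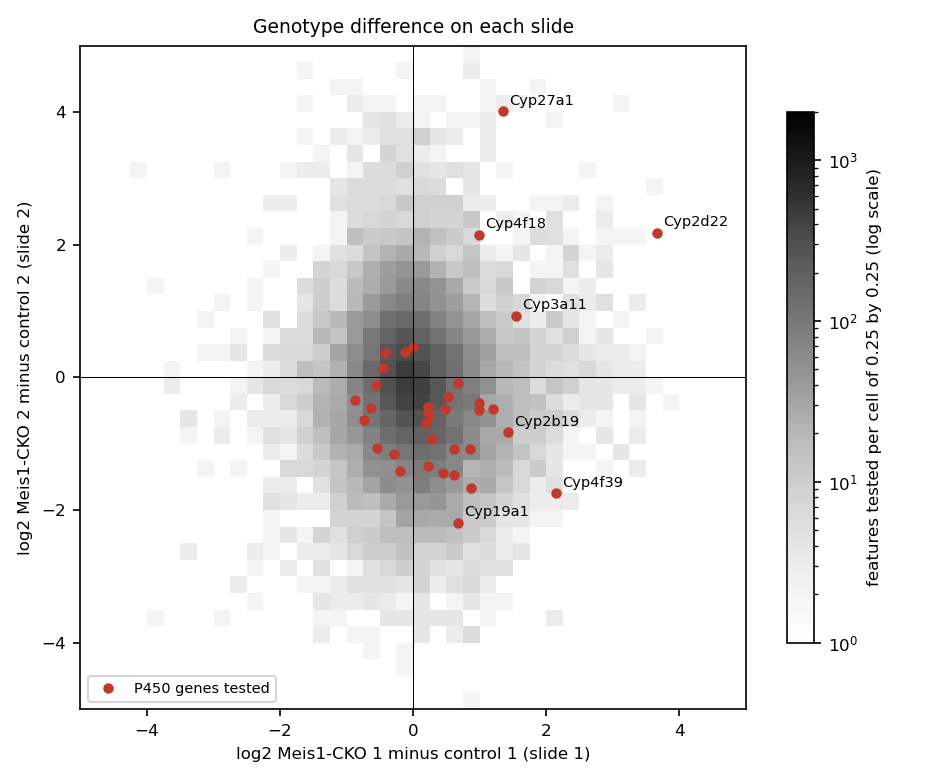
Log2 difference between Meis1-CKO and control on slide 1 (horizontal) and slide 2 (vertical) for the 35 tested P450 genes (red), over the number of all tested features per cell of 0.25 by 0.25 log2 units (grey, log scale); 43 features lie outside the axes. The lower right field, higher on slide 1 and lower on slide 2, holds 20 of the 35 genes.

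Lists of other genes known from liver and gut showed their own values in the same pools. For 9 tested genes of liver, such as Alb and Apoa1, the median difference was 0.49 on slide 1 and -1.16 on slide 2, and 6 of the 9 were lowest in Meis1-CKO 2. For 6 tested genes of small intestine the medians were 0.29 and -0.75, and all 6 were lowest in Meis1-CKO 2. Whether P450 genes differ from these lists was not tested. The summed linear signal of the 10 mature medullary TEC markers was 196, 189, 199 and 171 times the 75th percentile, listing both controls and then Meis1-CKO 1 and 2, and all 10 were above background in every pool. H2-Aa, a class II gene that dendritic cells also express, gave 105, 71.8, 100.3 and 116 of these, and the other 9 summed to 90.8, 118, 98.4 and 55.6, lowest in Meis1-CKO 2. For the 9 cortical TEC markers it was 314, 239, 302 and 107, lowest in the same pool as most P450 genes. Ccl25, the brightest of them with relative log2 signals of 7.60, 7.51, 7.69 and 5.91, weighs most in this sum. Of the 9 cortical markers, 6 were lowest in Meis1-CKO 2 and 2 were highest there. Of the 8 TEC markers, 6 were lowest in Meis1-CKO 2, as were all 5 tested fibroblast markers (slide medians 0.48 and -1.79). Thymocyte markers ran the other way, with slide medians of -1.68 and 1.13 and 12 of 13 lowest in Meis1-CKO 1. Aire read 2.50, 4.59, 3.03 and 2.37 in that order, highest in control 2 and lowest in Meis1-CKO 2. Its difference was 0.53 on slide 1 and -2.22 on slide 2, with the signs seen for most P450 genes. The part of these markers in the P450 pattern was not tested.

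**Figure D4:**
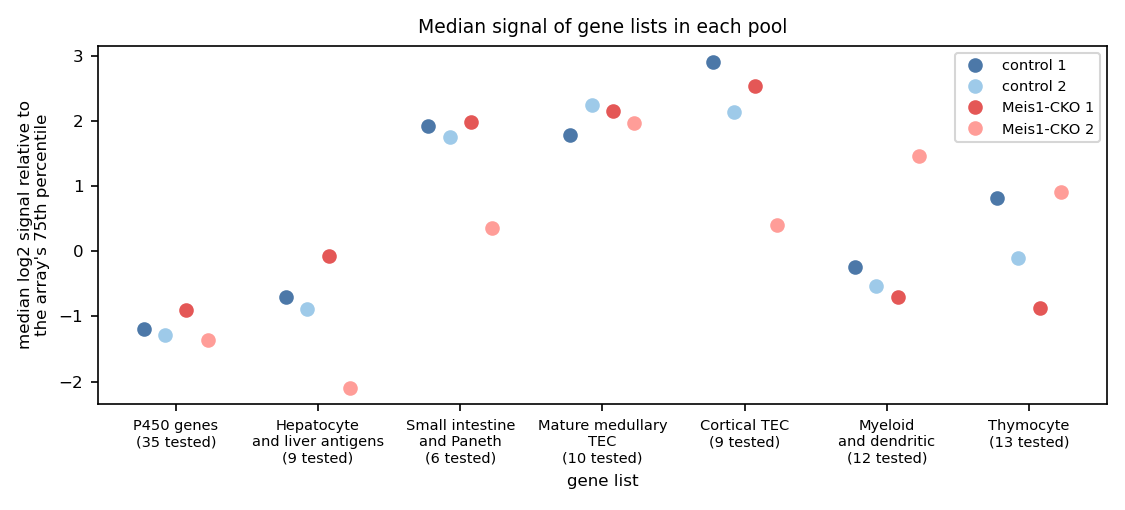
Median relative log2 signal (vertical axis) of each gene list in each of the 4 pools, with the number of tested genes under its name. The P450, liver, intestine and cortical TEC medians were lowest in Meis1-CKO 2, while the myeloid and dendritic median was highest there at 1.45.

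The aryl hydrocarbon and xenobiotic group holds the CYP1 family and Cyp2s1, genes that the aryl hydrocarbon receptor is known to induce. Of its 4 genes, 3 were tested, and 0 passed. Cyp1b1, which oxidises oestrogens and polycyclic hydrocarbons, read 1.09 in control 1, -0.53 in control 2, 0.35 in Meis1-CKO 1 and -1.18 in Meis1-CKO 2. Its groups overlapped, and the controls differed from each other by more than the group means did (log2 difference -0.69, SE 0.79). Cyp2s1, an epithelial member, read -1.47, -0.70, -0.48 and -1.20 in the same order, with overlapping groups (log2 difference 0.24, SE 0.53). Cyp1a2, the caffeine-metabolising enzyme of liver, read -1.57, -0.50, -0.96 and -1.98 on the probe that stands for it, with overlapping groups (log2 difference -0.43, SE 0.61). With the mean of its tested probes the log2 difference was -1.09, with both Meis1-CKO pools below both controls (unadjusted p = 0.12 and adjusted p = 1.00 by limma). The receptor gene Ahr was dim in 3 pools and read -1.34 in Meis1-CKO 2 alone.

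Drug and xenobiotic CYP2 genes gave the most members: 14 of 31 were tested and 0 passed. Of these 14, 4 had a positive and 10 a negative difference (45.4% of all features were positive). Their median difference was 0.26 on slide 1 and -0.55 on slide 2. On slide 2, 13 of the 14 were lower in Meis1-CKO, as were 56.3% of all features. Cyp2a5, a coumarin and nicotine oxidase, read 5.22 in control 1, 4.73 in control 2, 5.46 in Meis1-CKO 1 and 4.16 in Meis1-CKO 2. The 2 Meis1-CKO pools thus lay on either side of the controls (log2 difference -0.16, SE 0.59). All 3 probes of Cyp2a4, a steroid hydroxylase, followed the same order of pools, the probe standing for it with 3.88, 3.42, 4.11 and 2.89. That probe shares 20 bases with another of the 3, so these 2 are not independent readings. As said above, Cyp2a4 signals may hold RNA of Cyp2a5. Cyp2g1, a nasal mucosa enzyme, read 1.07, 1.04, 1.35 and 0.10 on the probe that stands for it and 0.50, 0.78, 1.51 and -1.01 on its other probe. It was named after its values were seen, and Meis1-CKO 1 was highest and Meis1-CKO 2 lowest on both probes. Cyp2f2, known from the club cells of the airway, read 2.18, 1.32, 1.62 and 1.20, highest in control 1 and lowest in Meis1-CKO 2.

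Cyp2b19, a keratinocyte enzyme that acts on arachidonic acid, read -1.96, -1.00, -0.54 and -1.82, with Meis1-CKO 1 the highest and Meis1-CKO 2 between the controls (log2 difference 0.30, SE 0.64). Its second probe, above background in control 1 alone, read -2.00, -3.19, -4.57 and -5.74. This was the opposite direction, with both Meis1-CKO pools below both controls. The gene cluster on chromosome 7 that holds it with Cyp2s1, Cyp2a4, Cyp2a5, Cyp2g1 and others had 9 of 12 genes tested, with medians of 0.28 on slide 1 and -0.53 on slide 2. In this group 2 members were lower in both Meis1-CKO pools by less than 2-fold. Cyp2c70, which makes muricholic acids in mouse liver, read -2.00 and -1.72 in the controls against -2.29 and -2.87 (log2 difference -0.72, SE 0.46, unadjusted p = 0.17 and adjusted p = 1.00 by limma). Cyp2d10 read -2.30 and -2.76 against -3.18 and -3.10 (log2 difference -0.61, SE 0.44), near the lowest signals above background, and its second probe was dim on all 4 arrays. Cyp2e1, the ethanol-oxidising enzyme of liver, was dim in 3 pools, at -5.75, -5.74 and -6.09, and read -2.08 in Meis1-CKO 2. Cyp2c54 likewise read -1.97 in Meis1-CKO 2 alone; it is named after its values were seen, as the other gene detected only there.

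Cyp2d22 is a mouse member of the CYP2D subfamily of drug-metabolising enzymes. Its first probe was dim in both controls, at -5.55 each, and read -1.88 in Meis1-CKO 1 and -3.37 in Meis1-CKO 2. The groups did not overlap (log2 difference 2.92, SE 0.62, unadjusted p = 0.004 and adjusted p = 1.00 by limma), and the difference was 3.67 on slide 1 and 2.18 on slide 2. The probe passed the filter only through the Meis1-CKO arrays, so nothing is read from its separation or p. The scanner software used surrogate values for it on 2 arrays, and its standard deviation over the controls was 0.003. Counted against the lowest signals above background, the mean signal was at least 1.75-fold higher in Meis1-CKO. Without the filter on dim probes another probe stood for the gene, with a log2 difference of 0.20 (unadjusted p = 0.64 and adjusted p = 0.90 by limma). Detection in both Meis1-CKO pools and neither control was met by Cyp2d22, Cyp27a1 and Cyp4f18 and by 1.84% of all features. The reverse was seen for 0 P450 genes, with no share of all features given beside it, so no direction is read from these counts. The second probe of Cyp2d22 read -3.25, -4.12, -3.51 and -3.45, and the other -5.47, -5.43, -3.95 and -5.71, both dim on all arrays. Thus 1 of its 3 probes carried the difference, which was 0.35 with normexp.

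Among the CYP3A genes, the main drug-oxidising subfamily of liver and gut, 2 of 5 were tested and 0 passed. Cyp3a11, the best known of them in mouse liver, read -3.75 in control 1, where it was dim, -2.52 in control 2, -2.21 in Meis1-CKO 1 and -1.59 in Meis1-CKO 2. Both Meis1-CKO pools lay above both controls, the nearer pair by a small margin (log2 difference 1.23, SE 0.59, unadjusted p = 0.087 and adjusted p = 1.00 by limma). Cyp3a11 passed the filter only through the Meis1-CKO arrays, so nothing is read from its separation or p. Cyp3a13 read -0.27, -1.01, -0.07 and -1.70, with overlapping groups. Cyp3a16 was detected only in Meis1-CKO 1 and Cyp3a25 only in control 1, both by 1 probe.

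Of the CYP2J fatty acid epoxygenases, which make signalling epoxides from arachidonic acid, 3 of 5 were tested and 0 passed. The probe that stands for Cyp2j13 read 1.27 in control 1, 1.55 in control 2, 1.88 in Meis1-CKO 1 and 0.46 in Meis1-CKO 2, again with the Meis1-CKO pools on either side of the controls. On its other 2 probes Meis1-CKO 2 was also lowest, at -3.45 and -4.28. Cyp2j6 had a log2 difference of 0.00 (SE 0.81) that was the balance of 0.49 on slide 1 and -0.48 on slide 2.

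Of the 12 fatty acid hydroxylases of the CYP4 family, 6 were tested and 0 passed. Differences were positive for 5 of the 6 (45.4% of all features were positive), with a median of 0.22 (all features -0.05). Cyp4f18, which inactivates a leukotriene in mouse neutrophils, was dim in the controls at -3.49 and -3.52 and read -2.50 in Meis1-CKO 1 and -1.37 in Meis1-CKO 2. The groups did not overlap (log2 difference 1.57, SE 0.54, unadjusted p = 0.030 and adjusted p = 1.00 by limma; at least 2.83-fold higher against the lowest signals above background). Cyp4f18 passed the filter only through the Meis1-CKO arrays, so nothing is read from its separation or p. Cyp4f39, which hydroxylates very long fatty acids for the skin barrier, read -3.25 and -3.13 in the controls. It read -1.10 in Meis1-CKO 1 and -4.87, a dim signal, in Meis1-CKO 2. Its 2 Meis1-CKO pools were the highest and the lowest of the 4, and its SE of 1.21 was the largest of the members. Cyp4v3, a hydroxylase of the eye and other tissues, read -0.26, -0.98, -0.26 and -0.52, and its groups overlapped. Cyp4a10, a target of Ppara in liver, read -1.71, -1.62, -1.19 and -1.92 on the probe that stands for it. A second tested probe read -2.62, -3.97, -3.40 and -3.40, so the 2 differences had opposite signs (0.11 and -0.10).

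Of the 6 bile acid and cholesterol genes, 3 were tested and 0 passed. Cyp27a1, the mitochondrial sterol hydroxylase, read -4.63 and -4.28 in the controls, both dim, then -3.28 in Meis1-CKO 1 and -0.27 in Meis1-CKO 2. The groups did not overlap (log2 difference 2.68, SE 1.01, unadjusted p = 0.040 and adjusted p = 1.00 by limma; at least 3.16-fold higher against the lowest signals above background). The difference was 1.35 on slide 1 and 4.01 on slide 2. Cyp27a1 passed the filter only through the Meis1-CKO arrays, so nothing is read from its separation or p. When Meis1-CKO 1 was left out it was the 1 P450 gene called (log2 difference 4.19, adjusted p = 0.033 by limma), with the spread taken from the controls alone, both of them dim; against the lowest signals above background that pool was at least 8.98-fold higher. Cyp7b1, an oxysterol hydroxylase of many tissues, read 1.42, 0.56, 0.79 and 0.11, with Meis1-CKO 1 between the controls (log2 difference -0.55, SE 0.54). Cyp39a1, another oxysterol hydroxylase, read -2.57 and -2.44 in the controls and -3.11 and -3.50 in Meis1-CKO, below both controls (log2 difference -0.80, SE 0.44, unadjusted p = 0.12 and adjusted p = 1.00 by limma). On its second probe Meis1-CKO 1, at -3.03, lay between the controls.

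Markers of myeloid and dendritic cells, which also express Cyp27a1 and Cyp4f18, were higher in the pool where these genes were highest. The summed linear signal of 12 tested markers of the 15 listed was 27.5, 35.3, 32.5 and 119 times the 75th percentile, listing both controls and then Meis1-CKO 1 and 2, and 9, 11, 12 and 14 of the 14 on the array were above background. Of the 12, 8 were highest in Meis1-CKO 2. C1qa and Siglech were dim in the other 3 pools. Mpeg1 alone gave 71.6 of the 119 in Meis1-CKO 2, and without it the sums were 27.2, 34.6, 32.2 and 47.7. The median difference of the markers was 0.12 on slide 1 and 1.34 on slide 2. In Meis1-CKO 1, measured against the lowest signals above background of the controls, Cyp27a1 was at least 1.11-fold and Cyp4f18 at least 1.91-fold higher. In Meis1-CKO 2 the bounds were 8.98-fold and 4.19-fold. The part of such cells in these results was not tested.

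**Figure D5:**
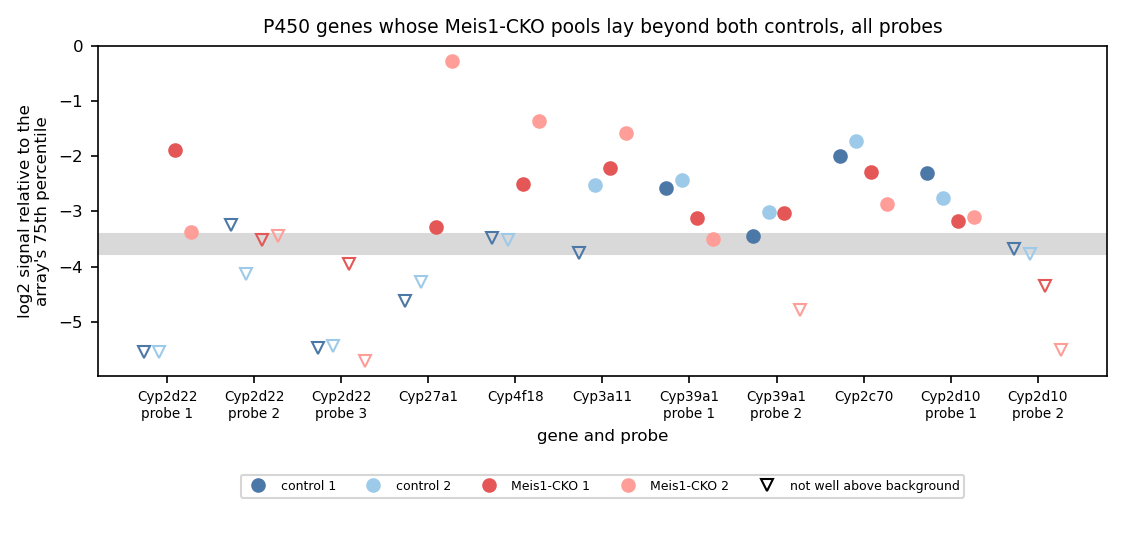
Relative log2 signal (vertical axis) in each pool on every probe of the 7 P450 genes whose Meis1-CKO pools both lay beyond the controls on the probe standing for the gene, which is probe 1. Open triangles are signals not well above background, and the grey band spans the lowest signals above background of the 4 arrays, -3.78 to -3.42; the control signals of Cyp2d22, Cyp27a1 and Cyp4f18 are all open triangles.

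None of the 3 vitamin D genes was tested. Cyp24a1, which inactivates vitamin D, was above background in Meis1-CKO 1 alone, at -2.66, against -5.66 in control 1, -4.02 in control 2 and -5.04 in Meis1-CKO 2. Cyp27b1, which activates it, was above background in control 2 alone, at -3.00, against -4.52, -5.81 and -3.77 in control 1, Meis1-CKO 1 and Meis1-CKO 2. Cyp2r1, the liver vitamin D hydroxylase, was dim everywhere, at -4.25, -4.73, -5.62 and -4.90. The receptor gene Vdr read -1.54, -0.86, -0.67 and -1.50, with overlapping groups (log2 difference 0.11).

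The retinoic acid hydroxylases Cyp26a1 and Cyp26b1, which break down retinoic acid, were both tested, and 0 passed. Cyp26a1 read 0.24 in control 1, 0.94 in control 2, 0.68 in Meis1-CKO 1 and -0.50 in Meis1-CKO 2 (log2 difference -0.50, SE 0.59). Cyp26b1 read 0.84, 0.55, 1.06 and -0.79 (log2 difference -0.56, SE 0.70). In both genes Meis1-CKO 1 lay within or above the controls and Meis1-CKO 2 below them, and the median of the pair was 0.33 on slide 1 and -1.39 on slide 2. Rdh10, which makes retinaldehyde for retinoic acid synthesis, read 1.35 and 0.94 in the controls and 0.92 and -0.80 in Meis1-CKO (log2 difference -1.08). Both Meis1-CKO pools lay below the controls there, the first by a narrow margin.

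Cyp19a1, the aromatase that makes oestrogen, read 1.93 in control 1, 2.27 in control 2, 2.60 in Meis1-CKO 1 and 0.08 in Meis1-CKO 2. Its value was above both controls in one Meis1-CKO pool and below both in the other (log2 difference -0.76, SE 0.88; 0.68 on slide 1 and -2.19 on slide 2). A second Cyp19a1 probe was dim on all arrays. Cyp20a1, an orphan member, varied little, at -1.31, -1.38, -1.76 and -1.24 (log2 difference -0.16, SE 0.45). Cyp51, the sterol demethylase of cholesterol synthesis, whose array name lies outside the naming rule, read 0.39, 0.64, 0.44 and 0.24. Its other 2 probes read 0.08, -0.20, -1.50 and -1.35, below both controls in Meis1-CKO, and -1.37, -0.19, -0.74 and -1.20, overlapping them.

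Of 58 genes that supply electrons to P450 enzymes, regulate their genes or act beside them, 45 were tested and 0 passed, or had an unadjusted p under 0.05 by limma, with 18 positive and 27 negative differences and a median of -0.16. Por, the shared electron donor, read -0.41 and -0.03 in the controls and 0.32 and 0.22 in Meis1-CKO (log2 difference 0.49), with no overlap and less than a 2-fold difference. The smallest p among them belonged to the regulators Rxrg, Foxa1 and Hnf4a and to Rdh10. Rxrg, a retinoid X receptor, read -1.56 and -1.76 in the controls, -2.27 in Meis1-CKO 1 and -5.93 in Meis1-CKO 2, where it was dim. Foxa1, a pioneer factor of endoderm, read -2.35, -2.57, -2.67 and -5.23, dim in the last. Rxrg and Foxa1 passed the filter only through the control arrays, so nothing is read from their separation, p or rank by p. Hnf4a, a regulator of liver and gut P450 genes, read 0.43 and 0.26 against -0.09 and -0.54 (log2 difference -0.66). Without Meis1-CKO 1, the log2 difference of Rxrg was -4.27, with the spread taken from the controls alone, and nothing is read from that fit. Its signal in the remaining pool was dim, so it was at least 4.22-fold lower there.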

How the data were processed

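TECs of 2 groups, each of 2 pools, were measured on 4 one-colour arrays. The deposited scanner files hold linear intensity values, background-subtracted and detrended within the array by Agilent Feature Extraction 9.5.3.1, per the file headers, with low values replaced by surrogates. The authors' deposited value table holds log2 values centred per probe; regressed on the scanner values over 20816 probes, column differences gave a slope of 1.00. Its column medians were 0.04 and 0.09 (controls) and -0.06 and -0.12 (Meis1-CKO).

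Control spots and flagged outliers were left out, and spots of a probe averaged. The log2 signal minus the array's 75th percentile was used; those percentiles were 93.2, 137, 109 and 152. A probe was tested if both arrays of either group had it well above background, and a gene's tested probe with the highest mean stood for it. Symbols came from the files, updated through RefSeq by accession for 26792 of 41174 probes and by older symbol for 929; Cyp2c44 is kept as the file names it. Groups were compared with limma 3.58.1 in R 4.3.3 (two-sided, Benjamini-Hochberg over 16832 features), checked on simulated data. With 5.51 degrees of freedom after moderation, the number of arrays limits precision. The labels name 2 independent experiments but not what a replicate number shares; same-numbered arrays deviated together with a correlation of 0.13 across features.

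Members, role groups and lists were chosen with earlier results of these data known. Genes named are those with separated pools, a fixed list of P450 genes, the 5 with the highest signal, those whose tested probes differ in sign, those detected in 1 group only, Por, Ahr, Vdr, Aire, Meis1 and 4 partners or regulators with the smallest p. Other P450 genes (Cyp2g1, Cyp2j6, Cyp3a13, Cyp2c54, Cyp3a16, Cyp3a25, Cyp7a1, Cyp8b1 and Cyp11b2) were named after their values had been seen. The result of a further probe is not reported here.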

Additional observations from a re-analysis of the deposited data

How the results depend on the processing

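The counts called by limma stayed at 0 for P450 genes, partner genes and all features under normexp background correction, quantile normalization, scaling to the array median, the deposited value table, no filter on dim probes, a filter on all 4 arrays and the mean of a gene's probes. The fit with the replicate block called 0 higher and 0 lower P450 genes, and the labels do not say what a shared replicate number means. Leaving out 1 array in turn gave 0 to 204 features called higher and 0 to 120 lower, 0 to 1 P450 genes higher and 0 to 1 partner genes lower. The P450 genes separated by at least 2-fold numbered 3 to 7 higher and 0 to 11 lower in these fits. Separation is easier to meet with 1 array left in a group, and shares over all features are not given for these fits. The median difference of the P450 genes ran from -0.76 to 0.39. The higher count was 0 with normexp, which draws dim signals together, and 0 with the filter on all 4 arrays, which leaves the 4 genes out. The lower count was 1 without a filter (Cyp3a25, which the filter leaves out) and 1 with the mean of probes (Cyp1a2). By the scanner's less strict detection flag, 74 P450 probes were detected in control 1, 82 in control 2, 86 in Meis1-CKO 1 and 71 in Meis1-CKO 2. Of 32 named genes tested, 14 kept the sign of their difference under every alternative run, and 18 lost it only when an array was left out: Aire (-1.89 to 0.20), Cyp19a1 (-2.02 to 0.50), Cyp1a2 (-0.97 to 0.10), Cyp1b1 (-1.50 to 0.12), Cyp20a1 (-0.42 to 0.11), Cyp26a1 (-1.09 to 0.093), Cyp26b1 (-1.48 to 0.36), Cyp2a4 (-0.76 to 0.46), Cyp2a5 (-0.81 to 0.48), Cyp2b19 (-0.35 to 0.94), Cyp2f2 (-0.77 to 0.093), Cyp2j13 (-0.94 to 0.47), Cyp2s1 (-0.14 to 0.63), Cyp4a10 (-0.26 to 0.48), Cyp4f39 (-1.68 to 2.09), Cyp4v3 (-0.13 to 0.59), Meis1 (-1.57 to 0.078) and Vdr (-0.30 to 0.53). Many members lie close to background, where signals limit precision.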
